A study of Homo sapiens with 24 samples.

Results

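The BCL2 family of apoptosis regulators was described through 10 genes, BCL2, BCL2L1, MCL1, BAX, BAK1, BBC3, PMAIP1, BCL2L11, BID and BIK, which were taken by gene symbol from a table of raw read counts for 58735 genes. All 10 were found once, and all 10 passed the filter on low counts that left 15956 genes for testing. The cells were SAS, an established human oral squamous cell carcinoma line, either with wild-type NRF2 (labelled WT) or with the E79Q form of NRF2 (labelled Nrf2E79Q). NRF2 (gene NFE2L2) drives antioxidant gene expression, and the changed residue lies in the stretch bound by its repressor KEAP1. How the E79Q line was made, and whether it is 1 clone, is not given in the sources used here.

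On GRCh38, the gene spans deposited with the counts place the anti-apoptotic genes BCL2 at chr18:63123346-63320128, BCL2L1 at chr20:31664452-31723989 and MCL1 at chr1:150574551-150579738, all on the minus strand. The effector BAX lies at chr19:48954815-48961798 on the plus strand and BAK1 at chr6:33572547-33580293 on the minus strand. Of the BH3-only genes, PMAIP1 (chr18:59899948-59904306), BCL2L11 (chr2:111119378-111168447) and BIK (chr22:43110748-43129712) lie on the plus strand, and BBC3 (chr19:47220822-47232766) and BID (chr22:17734138-17774770) on the minus strand. The deposited length of each gene equals its merged exon length in GENCODE 29 for all 10.

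Each genotype was sampled in 4 treatments with 3 libraries each, 24 libraries in 8 groups: control, CB-839, radiation (RT) and radiation with CB-839. CB-839 is a glutaminase inhibitor and was given at 0.1 µM, with vehicle in its place elsewhere, for 24 h before a dose of 4 Gy of X-rays. RNA was isolated 24 h after irradiation. The sample records used here give no matching time for unirradiated libraries, and do not say whether CB-839 stayed on after irradiation. Time to harvest and length of drug exposure may therefore differ in the radiation comparisons. All groups were grown in the same serum-containing medium. The series' design text counts the irradiated libraries alone, and whether the unirradiated ones were made together with them is not given, so radiation and preparation cannot be told apart in the radiation comparisons. The labels do not say that replicates were separate cultures, so p-values measure the spread between these libraries, which may be technical.

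BCL2 family proteins decide whether the outer mitochondrial membrane is permeabilised. BCL2, BCL2L1 (its long form is BCL-XL) and MCL1 hold the pore-forming effectors BAX and BAK1 in check. The BH3-only proteins BBC3 (PUMA), PMAIP1 (NOXA), BCL2L11 (BIM), BID and BIK bind these guardians or activate the effectors, and open pores release cytochrome c, which starts the caspase cascade. BBC3, PMAIP1 and BAX are textbook targets of p53 after DNA damage, and PMAIP1 acts chiefly on MCL1. Squamous carcinomas commonly lean on BCL-XL and MCL1 for survival.

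For 6 members, RefSeq's table of transcription starts (GRCh38.p14) held a window reaching beyond the annotated gene, and its part upstream of the gene is printed here to show what regulatory letters lie in front of 4 genes described at length here (BBC3, PMAIP1, BID, BCL2L1) and of the effectors (BAX, BAK1). All are written 5′ to 3′ on the gene's own strand. Capitals mark matches, on either strand, to 4 motifs: a p53 half-site, the antioxidant response element TGACNNNGC, the ATF4-C/EBP element TGATGNAA and the cAMP response element half-site TGACG. The TGACG letters can overlap an antioxidant response element.
BBC3 (chr19:47232767-47232917, minus strand): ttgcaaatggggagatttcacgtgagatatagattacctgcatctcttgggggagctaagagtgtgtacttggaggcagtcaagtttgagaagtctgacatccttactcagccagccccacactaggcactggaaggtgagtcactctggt
PMAIP1 (chr18:59899746-59899947, plus strand): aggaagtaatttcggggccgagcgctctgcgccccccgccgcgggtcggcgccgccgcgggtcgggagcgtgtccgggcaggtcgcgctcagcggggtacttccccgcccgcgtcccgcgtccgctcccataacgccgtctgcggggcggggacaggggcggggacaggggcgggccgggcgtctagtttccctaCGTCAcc
BID (chr22:17774771-17774915, minus strand): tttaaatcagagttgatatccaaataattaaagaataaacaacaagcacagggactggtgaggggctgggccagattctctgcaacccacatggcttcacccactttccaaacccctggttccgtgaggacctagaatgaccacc
BCL2L1 (chr20:31723990-31724213, minus strand): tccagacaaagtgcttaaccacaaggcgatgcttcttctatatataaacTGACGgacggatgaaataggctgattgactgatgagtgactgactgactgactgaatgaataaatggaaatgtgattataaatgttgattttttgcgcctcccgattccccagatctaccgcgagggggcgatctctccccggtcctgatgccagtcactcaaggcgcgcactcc
BAX (chr19:48954625-48954814, plus strand): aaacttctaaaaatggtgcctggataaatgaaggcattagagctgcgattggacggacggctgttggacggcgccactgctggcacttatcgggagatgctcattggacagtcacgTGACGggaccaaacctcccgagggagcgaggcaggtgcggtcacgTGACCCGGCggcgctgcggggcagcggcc
BAK1 (chr6:33580294-33580526, minus strand): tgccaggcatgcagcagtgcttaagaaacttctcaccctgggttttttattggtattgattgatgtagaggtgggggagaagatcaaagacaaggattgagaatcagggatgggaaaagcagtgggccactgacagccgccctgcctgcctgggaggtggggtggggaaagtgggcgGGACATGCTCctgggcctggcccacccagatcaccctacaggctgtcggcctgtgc
Of 35116 promoter windows of 300 bases in that table, 6.63% held the p53 half-site, 13.3% the antioxidant response element, 3.62% the ATF4-C/EBP element and 24.6% the cAMP response element half-site. These shares are for whole windows, which are longer than the printed stretches. In the printed stretches the p53 half-site occurred in BAK1 (GGACATGCTC), the antioxidant response element in BAX (TGACCCGGC) and the cAMP response element half-site in BAX, BCL2L1 and, read on the other strand, PMAIP1. The whole window of BCL2L1 also held an antioxidant response element (TGACTGAGC) 16 bases after the start, outside the printed stretch. BBC3 and BID held no match to these letters in these windows. RefSeq's table also matched BCL2 and BCL2L11, and it does not list MCL1 or BIK.

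Per length of exon, MCL1 was the most abundant member and BCL2 the least. The median over 24 libraries, in CPM (counts scaled to a common library size with edgeR's TMM factors) per kilobase of exon, was 72.9 for MCL1, 40.6 for BCL2L1 and 0.291 for BCL2. The effectors stood at 32.9 for BAK1 and 19.2 for BAX. Among BH3-only genes the median was 19.1 for PMAIP1, 16.1 for BIK, 12.0 for BID, 2.37 for BCL2L11 and 1.12 for BBC3. BBC3 and BCL2 rested on few reads, 23 to 127 and 38 to 98 per library, against 4991 to 7987 for MCL1.

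**Figure D1:**
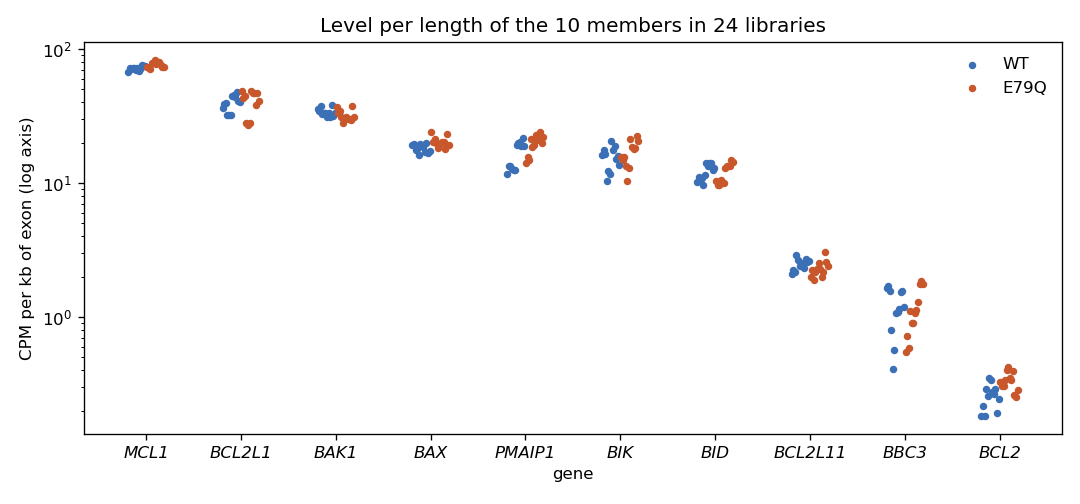
Level of each member in every library, in CPM per kilobase of exon on a log axis, by genotype (one point per library, members ordered by median). MCL1 lies highest at 67.5 to 82.4 and BCL2 lowest at 0.182 to 0.427, and BBC3 has the widest spread for its level.

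Total counts ran from 14285084 to 23640197 per library, and libraries of a group correlated at 0.985 to 0.992 across genes in log2 CPM. All 8 squamous epithelial markers were over 1 CPM, and in control cells their sum was 1961 to 2092 CPM in E79Q and 3124 to 3173 CPM in WT. Leukocyte and endothelial marker sums stayed under 5 CPM. The fibroblast marker sum was 45.1 CPM in E79Q control replicate 2, from COL1A1 and COL1A2, and 3.63 to 8.33 CPM in the other 23 libraries, with DCN and LUM at or near 0 throughout. Deviations from the group mean followed GC content most in E79Q RT + CB-839 replicate 2 (r across genes of 0.479) and replicate 1 (-0.38). An alternative fit left out 4 libraries with GC trends named in an earlier account of these data: E79Q RT + CB-839 replicate 2, WT RT + CB-839 replicate 1, E79Q control replicate 1 and WT CB-839 replicate 3. All 4 had positive trends (r of 0.166 to 0.479). E79Q RT + CB-839 replicate 1 (-0.38) was kept, so that fit does not free its group of GC trends. Where a described call is lost when 1 library is left out, the highest adjusted p without it is given beside it. Losses under the other alternatives are given for some calls only.

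The groups give 12 simple comparisons. They are the genotypes within each treatment, radiation with and without CB-839 in each genotype, and CB-839 with and without radiation in each genotype. Comparisons that share a group are not independent of each other. A gene was called changed at an edgeR quasi-likelihood adjusted p under 0.05, adjusted over all 15956 genes. In E79Q against WT, 3 members were called in control cells, where 19.7% of all tested genes were called, 4 under CB-839 (15% of genes), 1 after radiation (9.64%) and 1 after both (7.26%). Radiation changed 5 members in each of its comparisons: WT (17.9% of genes), WT with CB-839 (23.7%), E79Q (22.3%) and E79Q with CB-839 (29.2%). CB-839 changed 5 members in unirradiated WT cells (14.8% of genes), 1 in irradiated WT cells (9.53%), 6 in unirradiated E79Q cells (19.8%) and 3 in irradiated E79Q cells (26%). After radiation, the 1 of 10 members called between genotypes is close to the share of all genes. Also close are the 1 called between genotypes after both treatments, and the 1 and 3 called for CB-839 in irradiated WT and E79Q cells. The 3 called between genotypes in control cells lie near the 19.7% of genes too, with 2 to 5 called when 1 library was left out. Whether the other counts exceed their shares was not tested.

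Differences between effects were tested directly. The radiation effect differed by genotype for 1 member without CB-839 (1.26% of genes) and for 1 with it (1.08%). The CB-839 effect differed by genotype for 3 members in unirradiated cells (14.3% of genes) and for 0 in irradiated cells (1.91%). For that last comparison 3 members (MCL1, BID and BIK) had an unadjusted p under 0.05 in edgeR, and DESeq2 called 1 (MCL1). The effect of radiation depended on CB-839 for 2 members in WT (4.02% of genes) and 5 in E79Q (14.5%).

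**Figure D2:**
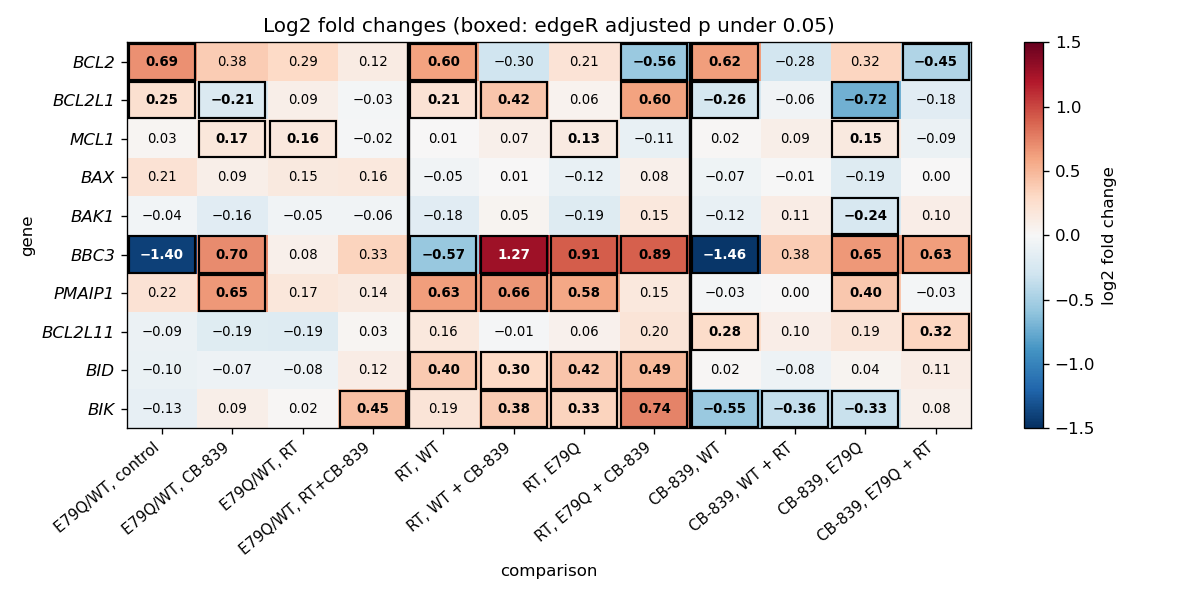
Log2 fold change of each member (rows) in the 12 simple comparisons (columns), on a colour scale from blue (lower) to red (higher), with the 44 called changes boxed. BID is boxed in all 4 radiation columns, BAX in none, and BBC3 carries both the lowest (-1.46) and the highest (1.27) values.

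BBC3, the gene of PUMA, varied most, and its genotype difference turned over with treatment. In control cells the 3 WT libraries stood at 5.28, 5.39 and 4.94 CPM and the E79Q libraries at 1.74, 2.29 and 1.87 CPM. The groups did not overlap, and E79Q cells were lower by a log2 fold change of -1.40 (SE 0.18, edgeR adjusted p = 1.7e-06). In bulk RNA, fewer cells with the transcript and less of it per cell cannot be told apart. Squamous markers were also lower in E79Q control cells, with 8 of 8 called. Their part in the BBC3 difference was not tested. Leaving out any of the 24 libraries, E79Q control replicate 2 included, kept the BBC3 fold change between -1.52 and -1.32.

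CB-839 moved BBC3 in opposite directions in the genotypes. In WT cells under the drug the libraries fell to 2.54, 1.32 and 1.8 CPM, all below the controls, with a log2 fold change of -1.46 (SE 0.18, edgeR adjusted p = 1.63e-06). In E79Q cells they rose to 3.52, 2.89 and 2.87 CPM, above the 3 E79Q controls, by 0.65 (SE 0.20, edgeR adjusted p = 0.02). The rise was no longer called without E79Q control replicate 1 or 3 or E79Q CB-839 replicate 1 (adjusted p up to 0.0983), nor without the 4 libraries with GC trends (0.0898). The difference between the drug's effects was 2.11 (SE 0.27, 95% interval 1.54 to 2.68, edgeR adjusted p = 3.49e-06) and was called with every library left out in turn. Under CB-839 alone E79Q cells then stood above WT by 0.70 (SE 0.20, edgeR adjusted p = 0.0146), a call lost without WT CB-839 replicate 2 or 3 or E79Q CB-839 replicate 1 (adjusted p up to 0.125). Applying no filter on low counts (edgeR adjusted p = 0.0532) or fitting those groups alone (0.0633) also lost that call.

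After radiation alone the genotypes stood together, at 3.39, 3.45 and 3.65 CPM in WT and 3.43, 3.58 and 4.12 CPM in E79Q (log2 fold change 0.08, 95% interval -0.28 to 0.44). Relative to unirradiated controls, the genotypes differed in direction. E79Q libraries rose with radiation by 0.91 (SE 0.19, edgeR adjusted p = 0.000683). WT libraries fell by 0.57 on the log2 scale (SE 0.17, edgeR adjusted p = 0.0163), although this call was lost without WT control replicate 1 or 2 or WT RT replicate 1 or 2 (adjusted p up to 0.0561). The difference in radiation effect was 1.48 (SE 0.25, 95% interval 0.95 to 2.02, edgeR adjusted p = 0.0012).

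The highest BBC3 level was in E79Q cells given both treatments, at 5.65, 5.87 and 5.66 CPM, above every library of the other 7 groups. On top of CB-839, radiation raised BBC3 in E79Q cells by 0.89 (SE 0.17, edgeR adjusted p = 0.000308). In WT cells the combined treatment gave 4.93, 4.97 and 3.77 CPM, a rise over CB-839 alone of 1.27 (SE 0.18, edgeR adjusted p = 9.71e-06). In WT the radiation effect with CB-839 exceeded that without it by 1.84 (SE 0.25, edgeR adjusted p = 1.99e-05). In E79Q that difference was -0.02 (95% interval -0.53 to 0.50). Irradiated E79Q cells also rose with CB-839, by 0.63 (SE 0.16, edgeR adjusted p = 0.00489). In irradiated WT cells the drug effect was 0.38 (edgeR adjusted p = 0.151), and the genotype difference in that effect was 0.25 (0.722), neither called. After both treatments E79Q against WT gave 0.33 (edgeR adjusted p = 0.243), not called. In the order of group means, WT control, WT RT + CB-839, E79Q RT, WT RT and E79Q CB-839 each overlapped the next, and E79Q control and WT CB-839 shared the lowest place with overlapping libraries.

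**Figure D3:**
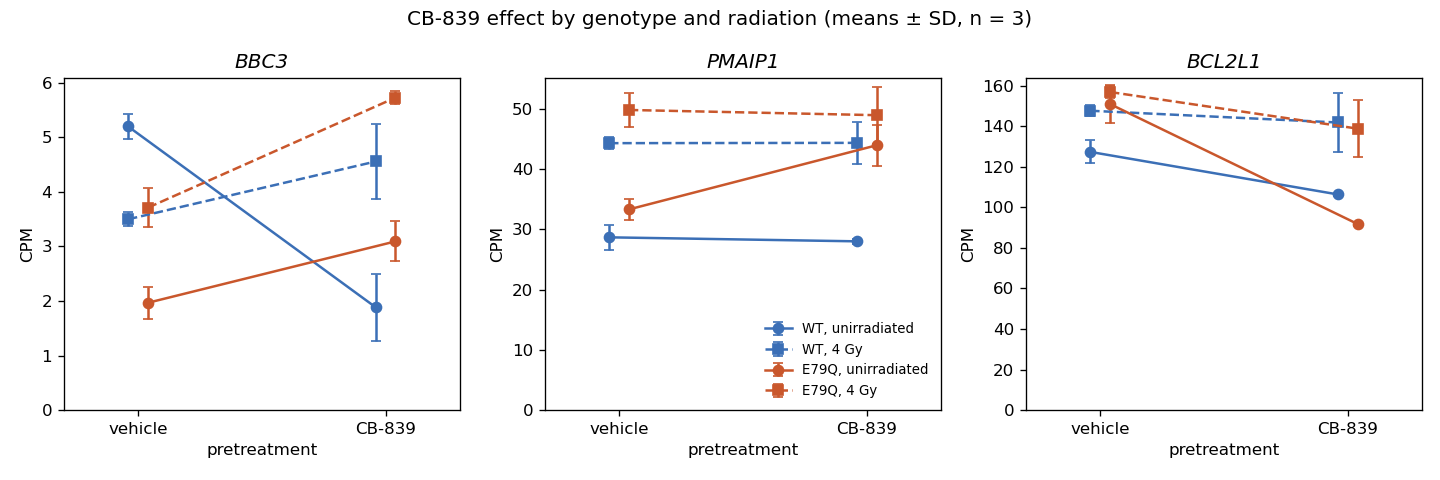
Mean CPM ± SD (n = 3) of BBC3, PMAIP1 and BCL2L1 with vehicle and with CB-839, joined by genotype (colour) and by irradiation (dashed lines, 4 Gy). For BBC3 the unirradiated lines cross, from 5.20 to 1.89 CPM in WT and from 1.97 to 3.09 CPM in E79Q.

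CDKN1A, the gene of the cell cycle inhibitor p21 and another p53 target, is set beside BBC3. Its mean was 55.9 CPM in WT control, 27.7 in WT CB-839, 38.2 in E79Q control and 62.6 in E79Q CB-839. CB-839 lowered it in WT by a log2 fold change of -1.01 (SE 0.09, edgeR adjusted p = 2.29e-09) and raised it in E79Q by 0.71 (SE 0.09, edgeR adjusted p = 6.66e-07), with a difference of 1.72 (SE 0.12, edgeR adjusted p = 9.8e-11). Radiation raised CDKN1A in all 4 comparisons, by 0.71 to 1.68, whereas MDM2, the p53 ubiquitin ligase and also a p53 target, was called in 1 of 4 (E79Q, 0.23, edgeR adjusted p = 0.0474). MDM2 was not called for CB-839 in unirradiated E79Q cells or for the genotype difference in that effect. In unirradiated WT cells, CB-839 lowered 2 of the 4 check genes (CDKN1A, MDM2, NQO1 and NFE2L2) and raised 0. CDKN1A was 1 of these 2, and 14.8% of all tested genes were called. Of the members that are p53 targets, CB-839 gave -0.03 for PMAIP1 and -0.07 for BAX in unirradiated WT cells, neither called. In unirradiated E79Q cells it gave 0.40 for PMAIP1 (called) and -0.19 for BAX (not called). A shared p53 response was not tested. NQO1, a classical NRF2 target, was higher in E79Q cells in all 4 treatments, by 0.73 to 0.95.

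PMAIP1, the gene of NOXA, rose with radiation in 3 of 4 comparisons. In WT cells the control libraries had 26.3, 29.9 and 29.8 CPM and the irradiated ones 43.1, 44.7 and 45.1 CPM, a log2 fold change of 0.63 (SE 0.08, edgeR adjusted p = 1.24e-06). In WT cells under CB-839 it went from 28.5, 27.7 and 27.8 CPM to 42.4, 48.3 and 42.2 CPM, by 0.66 (SE 0.08, edgeR adjusted p = 5.28e-07). In E79Q cells it went from 31.7, 35.1 and 33.0 CPM to 51.3, 46.6 and 51.5 CPM, by 0.58 (SE 0.08, edgeR adjusted p = 2.78e-06). No unirradiated library reached an irradiated one in these 3 comparisons.

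Unirradiated E79Q cells under CB-839 had 47.7, 41.3 and 42.8 CPM of PMAIP1. They lay above E79Q control by 0.40 (SE 0.08, edgeR adjusted p = 0.00056) and above WT under CB-839 by 0.65 (SE 0.08, edgeR adjusted p = 8.3e-07), with no overlap in either case. In control cells E79Q against WT gave 0.22 (edgeR adjusted p = 0.0604), called without the 4 libraries with GC trends (0.0155). In WT cells the drug effect was -0.03 (95% interval -0.21 to 0.14), and the difference between genotypes was 0.43 (SE 0.11, edgeR adjusted p = 0.0103). With radiation added, E79Q cells under CB-839 had 53.6, 44.1 and 49.1 CPM, overlapping the unirradiated ones, a change of 0.15 (95% interval -0.01 to 0.32, edgeR adjusted p = 0.135). That group holds the libraries that most follow GC content. Without the 4 libraries with GC trends the change was 0.22 (edgeR adjusted p = 0.0204), and with each library's GC trend removed, an alternative chosen after seeing the data, 0.45 (edgeR adjusted p = 2.15e-05).

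Accordingly, how PMAIP1's radiation effect depended on CB-839 in E79Q cells varied with the handling of GC content: -0.43 (SE 0.11, edgeR adjusted p = 0.0147) became -0.09 (0.653) with the GC trend removed, and the call was also lost without E79Q control replicate 1 (0.055). Under CB-839 the radiation effect was smaller in E79Q than in WT by 0.51 on the log2 scale (log2 difference -0.51, SE 0.11, edgeR adjusted p = 0.0176), which was lost without E79Q CB-839 replicate 1 or WT RT + CB-839 replicate 2 (adjusted p up to 0.0706). Fitting the compared groups alone also lost that call (edgeR adjusted p = 0.142). In the order of group means E79Q RT, E79Q RT + CB-839, WT RT + CB-839, WT RT and E79Q CB-839 overlapped in turn, E79Q control lay below them, and WT control and WT CB-839 were lowest and overlapped.

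BID, the BH3-only protein that caspase-8 cleaves to link death receptors to mitochondria, was called for radiation and for no other treatment or genotype comparison. Over the 12 unirradiated libraries it ranged from 42.6 to 51.2 CPM and over the 12 irradiated ones from 55.8 to 66.2 CPM, so the 2 sets did not overlap. No other member separated them in this way. CDKN1A, outside the family, also did so (25.73 to 64.81 against 84.05 to 157.6 CPM). The share of all tested genes that separate in this way was not computed. The log2 fold change was 0.40 in WT (SE 0.07, edgeR adjusted p = 6.79e-05), 0.30 in WT with CB-839 (SE 0.07, 0.00124), 0.42 in E79Q (SE 0.07, 2.78e-05) and 0.49 in E79Q with CB-839 (SE 0.07, 4.69e-06). All 4 calls held under each alternative and each left-out library. No genotype or CB-839 comparison called BID, with log2 fold changes between -0.10 and 0.12.

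BIK, a BH3-only protein of the endoplasmic reticulum, fell with CB-839 in 3 of 4 comparisons and rose with radiation in 3 of 4. WT control libraries had 15.4, 16.7 and 15.8 CPM and WT CB-839 libraries 9.87, 11.7 and 11.1 CPM, a log2 fold change of -0.55 (SE 0.11, edgeR adjusted p = 0.000537). E79Q cells went from 14.8, 14.2 and 14.9 CPM to 12.7, 9.91 and 12.3 CPM, by -0.33 (SE 0.11, edgeR adjusted p = 0.0283), a call lost without E79Q control replicate 1 or 3 or E79Q CB-839 replicate 2 (up to 0.186). In irradiated WT cells the drug effect was -0.36 (SE 0.10, edgeR adjusted p = 0.024), lost without WT RT replicate 1 or 3 or WT RT + CB-839 replicate 1 or 3 (up to 0.142). In irradiated E79Q cells the drug effect was 0.08 (edgeR adjusted p = 0.601). The genotype difference in drug effect on BIK was 0.22 in unirradiated cells (95% interval -0.10 to 0.54) and 0.44 in irradiated cells (95% interval 0.14 to 0.73, edgeR adjusted p = 0.118), not past the threshold.

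The largest BIK rise was that of radiation in E79Q cells under CB-839, to 17.3, 21.3 and 19.5 CPM, by 0.74 (SE 0.10, edgeR adjusted p = 7.68e-06). In WT cells under CB-839 it rose from a mean of 10.9 ± 0.921 CPM to 14.2 ± 1.11 CPM (SD, n = 3), by 0.38 (SE 0.11, edgeR adjusted p = 0.00983), lost without WT CB-839 replicate 1 (0.0621). The rise in E79Q without the drug was 0.33 (SE 0.10, edgeR adjusted p = 0.0176), lost without any 1 of the 3 E79Q control libraries or E79Q RT replicate 1 (up to 0.146). In WT without the drug the radiation effect was 0.19 (edgeR adjusted p = 0.216). After both treatments BIK was higher in E79Q than in WT, by 0.45 (SE 0.10, edgeR adjusted p = 0.00379), with no overlap, but not when those groups were fitted alone (0.122).

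BCL2L11, the gene of BIM, moved little, from 12.6 to 20.2 CPM over all libraries. It was called in 2 of 12 simple comparisons, both for CB-839. In WT the libraries went from 14.1, 15.1 and 14.5 to 19.2, 17.6 and 16.1 CPM (log2 fold change 0.28, SE 0.10, edgeR adjusted p = 0.0488), a call lost when any of 17 of the 24 libraries was left out. In irradiated E79Q cells it went from 15.1, 13.2 and 14.5 to 20.2, 17.2 and 16.1 CPM (0.32, SE 0.09, edgeR adjusted p = 0.0127), lost without E79Q RT replicate 2 or E79Q RT + CB-839 replicate 1 (up to 0.06). Fitting those groups alone also lost that call (edgeR adjusted p = 0.0966). BCL2L11 shares 727 bp of exon with MIR4435-2HG on the opposite strand, which had 11534 reads in all against 7054, and whether counting used strand is not given in the sources used here.

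**Figure D4:**
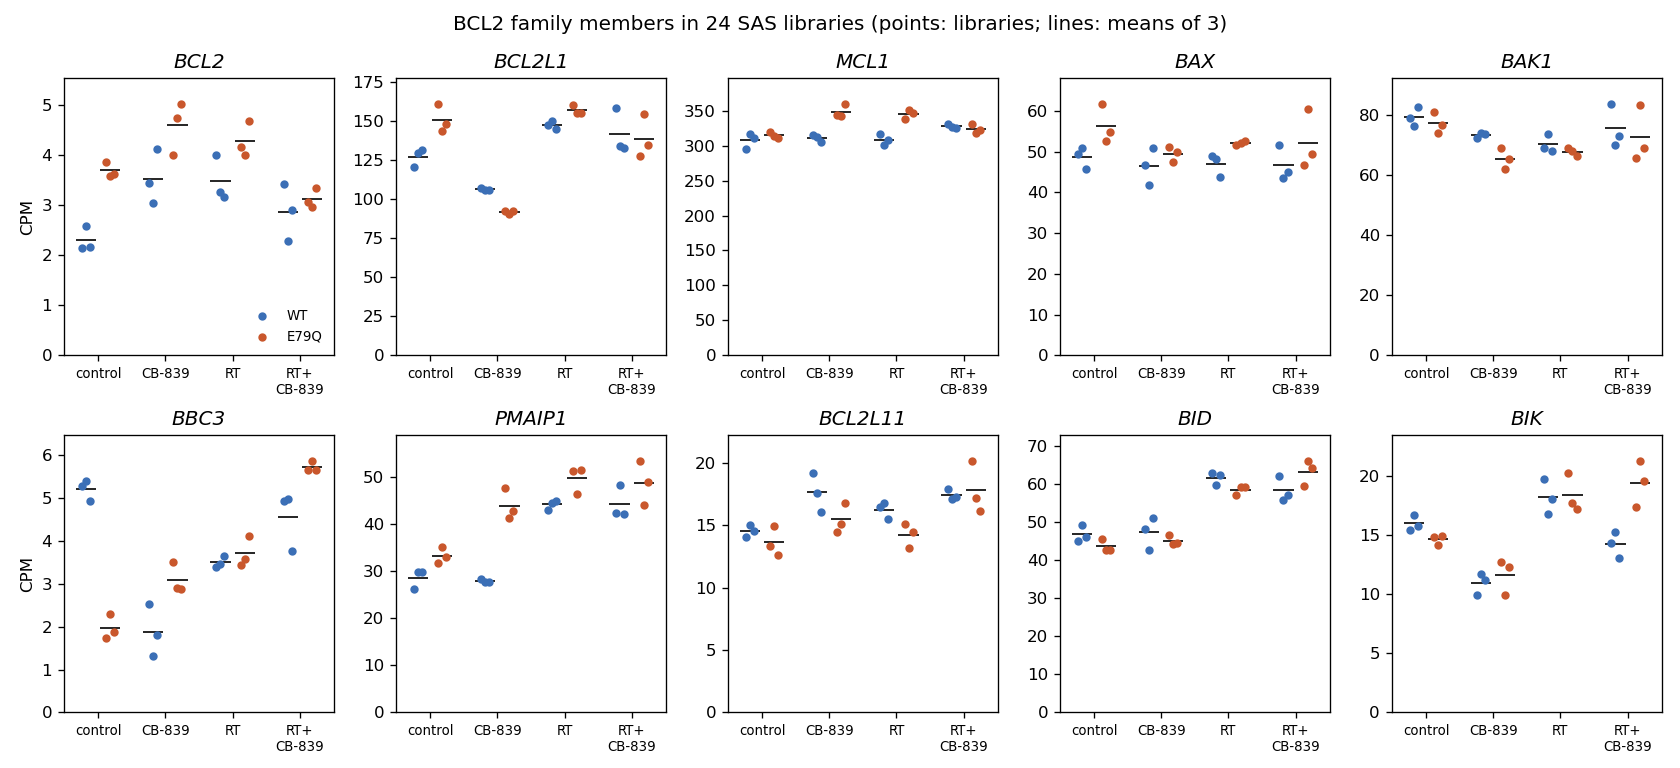
CPM of each member in all 24 libraries (points), by treatment and genotype, with the mean of 3 as a line and axes starting at 0. BID steps up from at most 51.2 to at least 55.8 CPM with radiation, and MCL1 stays between 295 and 360 CPM.

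Among the anti-apoptotic genes, BCL2L1 changed most clearly, and CB-839 lowered it further in E79Q cells. E79Q control libraries had 161, 144 and 148 CPM and E79Q CB-839 libraries 92.7, 90.4 and 92.2 CPM, a log2 fold change of -0.72 (SE 0.07, edgeR adjusted p = 1.13e-08). In WT cells the drug took BCL2L1 from 121, 129 and 132 CPM to 107, 106 and 106 CPM, by -0.26 (SE 0.07, edgeR adjusted p = 0.00825), lost without WT control replicate 3 (0.0513). The genotype difference in drug effect was -0.46 (SE 0.10, 95% interval -0.66 to -0.26, edgeR adjusted p = 0.00139) and was called with every library left out in turn. The 3 E79Q CB-839 libraries were the lowest of all 24. The antisense gene ABALON overlaps 1424 bp of BCL2L1 exon but had 1119 reads in all against 59442.

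Under CB-839, irradiated cells had more BCL2L1 than unirradiated cells in both genotypes. It rose in E79Q cells under CB-839 to 127, 154 and 135 CPM, by 0.60 (SE 0.07, edgeR adjusted p = 3.27e-07), and in WT cells under CB-839 to 159, 134 and 133 CPM, by 0.42 (SE 0.07, edgeR adjusted p = 4.01e-05). Without the drug the rise was 0.21 in WT (SE 0.07, edgeR adjusted p = 0.0252), lost without any of 5 of the 6 libraries compared (all but WT control replicate 3, up to 0.144), and 0.06 in E79Q (95% interval -0.08 to 0.20). In E79Q the radiation effect was larger with CB-839 than without by 0.54 (SE 0.09, edgeR adjusted p = 0.000804). In WT that difference was 0.20 (edgeR adjusted p = 0.236), not called. Under CB-839 the radiation effect in E79Q minus that in WT was 0.18 (edgeR adjusted p = 0.56), also not called. In irradiated E79Q cells the drug effect was -0.18 (edgeR adjusted p = 0.0509), and -0.26 (2.72e-05) without the 4 libraries with GC trends. In irradiated WT cells it was -0.06 (edgeR adjusted p = 0.641), and -0.14 (0.0306) without them.

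E79Q cells had more BCL2L1 than WT in the control state, by 0.25 (SE 0.07, edgeR adjusted p = 0.0089), a call lost without WT control replicate 1 or E79Q control replicate 1 (up to 0.0865). Under CB-839 they had less, by -0.21 (SE 0.07, edgeR adjusted p = 0.0329), lost without any 1 of the 6 libraries compared (up to 0.118). The groups did not overlap in either comparison.

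MCL1, the short-lived guardian that PMAIP1 targets, stayed within 295 to 360 CPM in all libraries. Its called changes were small: E79Q was above WT under CB-839 by 0.17 (SE 0.04, edgeR adjusted p = 0.00579) and after radiation by 0.16 (SE 0.04, edgeR adjusted p = 0.00877). E79Q cells rose with CB-839 by 0.15 (SE 0.04, edgeR adjusted p = 0.0115) and with radiation by 0.13 (SE 0.04, edgeR adjusted p = 0.019). All 4 were lost when no filter on low counts was applied (edgeR adjusted p 0.139 to 0.274). The genotype call under CB-839 was also lost without E79Q CB-839 replicate 3 (0.0546), and that after radiation without replicate 2 or 3 of either RT group (up to 0.0906). The CB-839 call was lost without E79Q control replicate 2 or 3 or E79Q CB-839 replicate 3 (up to 0.104), and the radiation call without E79Q control replicate 2 or 3 or any E79Q RT library (up to 0.12). In E79Q the radiation effect was lower with CB-839 than without by a log2 difference of -0.24 (SE 0.06, edgeR adjusted p = 0.0107), and not called with no filter (0.151) or with GC trends removed (0.066). The genotype difference in effect on MCL1 was 0.131 for CB-839 in unirradiated cells (edgeR adjusted p = 0.144). For radiation without CB-839 it was 0.128 (edgeR adjusted p = 0.413), and neither was called.

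BCL2 itself was at 2.14 to 5.02 CPM. WT control libraries were lowest on average, at 2.14, 2.58 and 2.16 CPM, and E79Q control libraries had 3.86, 3.59 and 3.62 CPM, a log2 fold change of 0.69 (SE 0.18, edgeR adjusted p = 0.00645) that held in every alternative. In WT cells BCL2 rose with radiation to 4.0, 3.25 and 3.17 CPM (0.60, SE 0.18, edgeR adjusted p = 0.0187) and with CB-839 to 3.44, 3.03 and 4.11 CPM (0.62, SE 0.18, edgeR adjusted p = 0.0181). Both calls were lost without WT control replicate 1 or 3, the first also without WT RT replicate 1 and the second without WT CB-839 replicate 3 (up to 0.119). The CB-839 call was also lost without the 4 libraries with GC trends (0.102).

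In E79Q cells under CB-839 BCL2 fell with radiation from 4.0, 4.74 and 5.02 CPM to 3.07, 2.96 and 3.35 CPM, by -0.56 (SE 0.17, edgeR adjusted p = 0.0128), lost without E79Q CB-839 replicate 3 or E79Q RT + CB-839 replicate 2 (up to 0.0691), and without the 4 libraries with GC trends (0.0578). In irradiated E79Q cells CB-839 lowered it by -0.45 (SE 0.16, edgeR adjusted p = 0.044), lost when any of 21 of the 24 libraries was left out (up to 0.176), without the 4 libraries (0.15) and in DESeq2 (0.0872). The radiation effect was lower with CB-839 than without by -0.90 in WT (SE 0.25, edgeR adjusted p = 0.0371) and -0.77 in E79Q (SE 0.23, edgeR adjusted p = 0.0303), lost without 10 and 8 of the 24 libraries respectively (up to 0.121 and 0.09). The E79Q value was also not called without the 4 libraries (0.0879).

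The effectors had the fewest calls. BAX, with 41.9 to 61.8 CPM, was called in 0 of the 12 simple comparisons by edgeR, with 2 unadjusted p-values under 0.05 and 0 calls by DESeq2. Its widest log2 fold change was 0.21, for E79Q against WT in control cells (95% interval 0.03 to 0.40, edgeR adjusted p = 0.0938), where WT libraries had 49.3, 50.9 and 45.7 CPM and E79Q libraries 61.8, 52.5 and 54.8 CPM. That difference was called when those groups were fitted alone (0.0168) and with the GC trend removed (0.00259). For radiation, BAX's intervals reached from -0.30 to 0.27 over the 4 comparisons.

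BAK1, with 62.1 to 83.9 CPM, was called in 1 simple comparison. CB-839 lowered it in E79Q cells from 81.0, 74.2 and 76.8 to 69.0, 62.1 and 65.4 CPM (log2 fold change -0.24, SE 0.07, edgeR adjusted p = 0.023), lost without E79Q control replicate 1 or E79Q CB-839 replicate 2 or 3 (up to 0.111). Radiation without the drug gave -0.18 in WT (edgeR adjusted p = 0.106) and -0.19 in E79Q (edgeR adjusted p = 0.0665), with no overlap between groups in either. Both were called without the 4 libraries with GC trends (0.00502 and 0.0286). The radiation effect in E79Q was higher with CB-839 than without by 0.34 (SE 0.10, edgeR adjusted p = 0.0312), lost without E79Q control replicate 1, E79Q CB-839 replicate 2, E79Q RT replicate 3 or E79Q RT + CB-839 replicate 2 (up to 0.0828). It was 0.20 (edgeR adjusted p = 0.105) without the 4 libraries with GC trends and 0.19 (0.0688) with the GC trend removed. Under CB-839, E79Q against WT gave -0.16 (edgeR adjusted p = 0.156), called without the 4 libraries (0.0348).

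Over the 8 group means, the genes most like the 3 members of widest range were sought among 12809 protein-coding genes, as a description of points that share libraries and scaling. BBC3 was followed most closely by DGKQ (Pearson r = 0.983), MYCBPAP (0.956) and RTN3 (0.953). PMAIP1 was followed by SPATS2 (0.993), BHLHE41 (0.983) and PRNP (0.983), and BCL2 by SNW1 (0.966), HOXA6 (0.961) and C12orf60 (0.948). DGKQ and RTN3 spanned 0.27 and 0.20 on the log2 scale, against 1.60 for BBC3.

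The death receptor pathway feeds into BID through caspase-8. Of 12 tested genes of 14 listed, radiation raised 5 and lowered 1 in WT, and raised 4 in WT with CB-839, 4 in E79Q and 6 in E79Q with CB-839, lowering 0 in these 3. Of all tested genes, 17.9%, 23.7%, 22.3% and 29.2% were called in these comparisons. The list's median log2 fold changes were 0.08, 0.06, 0.14 and 0.15, against medians of all tested genes between -0.004 and 0.020. TNFRSF10A, a receptor for the ligand TRAIL, rose in all 4 comparisons by 0.37 to 0.46. TNFRSF10B, the other death-signalling TRAIL receptor, also rose in all 4, by 0.17 to 0.40. CFLAR, which encodes the caspase-8 inhibitor FLIP, rose in all 4 as well, by 0.39 in E79Q with CB-839 (SE 0.14, edgeR adjusted p = 0.0312) up to 0.96 in E79Q (SE 0.14, edgeR adjusted p = 6.02e-06).

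CB-839 called 4 genes of that pathway in unirradiated WT cells, 3 in unirradiated E79Q cells, 1 in irradiated WT and 0 in irradiated E79Q cells, where 14.8%, 19.8%, 9.53% and 26% of all tested genes were called. TNFRSF1A, a TNF receptor, fell by -0.50 in WT (SE 0.06, edgeR adjusted p = 1.63e-06) and -0.43 in E79Q (SE 0.06, edgeR adjusted p = 1.22e-05). TNFRSF10D, a TRAIL decoy receptor, rose by 0.47 in WT and fell by 0.26 in E79Q on the log2 scale, a difference of -0.73 (SE 0.08, edgeR adjusted p = 2.6e-07). Between genotypes, TNFRSF10D was higher in E79Q control cells by 0.65 (SE 0.06, edgeR adjusted p = 1.47e-09).

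Downstream of the mitochondrion, 16 genes of the apoptosome, caspases and inhibitors of apoptosis were tested. Radiation raised 2, 1, 2 and 0 of them and lowered 0, 2, 3 and 3, in WT, WT with CB-839, E79Q and E79Q with CB-839, where 17.9%, 23.7%, 22.3% and 29.2% of all tested genes were called. BIRC3, a caspase and NF-kB pathway regulator, rose by 1.54 in E79Q (SE 0.29, edgeR adjusted p = 0.000223), from 2.66 to 7.82 CPM on average, and by 1.38 in WT with CB-839 (SE 0.32, edgeR adjusted p = 0.00228). APAF1, the scaffold of the apoptosome, fell by -0.53 in WT with CB-839, -0.44 in E79Q and -0.51 in E79Q with CB-839. CASP9, the initiator caspase it activates, fell with CB-839 in WT cells by -1.11 (SE 0.20, edgeR adjusted p = 0.000305), from 7.97 to 3.70 CPM, and was lower in E79Q than in WT control cells by -0.86 (SE 0.20, edgeR adjusted p = 0.00226).

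Of the other 13 BCL2 family genes, 10 were tested. In E79Q control cells 4 were lower than in WT and 0 higher, with a list median of -0.21 against -0.007 over all tested genes, of which 19.7% were called. BNIP3 and BNIP3L, mitophagy receptors induced by hypoxia, were lower by -0.45 (SE 0.06, edgeR adjusted p = 7.18e-07) and -1.05 (SE 0.13, edgeR adjusted p = 5.36e-07). Both also fell with CB-839 in WT cells, by -0.62 (SE 0.06, edgeR adjusted p = 4.19e-09) and -1.01 (SE 0.13, edgeR adjusted p = 1.6e-06). BMF, a BH3-only gene, rose with CB-839 in E79Q cells by 0.80 (SE 0.22, edgeR adjusted p = 0.00936), from 2.71 to 4.68 CPM, and in irradiated E79Q cells by 0.66 (SE 0.19, edgeR adjusted p = 0.0136). HRK was under 1 CPM in every group mean.

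Of 8 genes for BAK1 or MCL1 partners and MCL1 turnover, 0 were called by edgeR for radiation in WT, in WT with CB-839 or in E79Q, where 17.9%, 23.7% and 22.3% of all tested genes were called. At an unadjusted p under 0.05, 1 (HUWE1 in WT with CB-839) passed in these 3. VDAC2, the mitochondrial channel that binds BAK1, fell with CB-839 in E79Q cells by -0.30 (SE 0.05, edgeR adjusted p = 3.04e-05) and its relative VDAC1 by -0.28 (SE 0.04, edgeR adjusted p = 5.18e-06). In unirradiated cells both drug effects differed from those in WT, by -0.35 (SE 0.07, edgeR adjusted p = 0.000565) and -0.33 (SE 0.05, edgeR adjusted p = 0.00013). HUWE1, a ubiquitin ligase of MCL1, rose with CB-839 in irradiated cells, by 0.16 in WT (SE 0.04, edgeR adjusted p = 0.0166) and 0.20 in E79Q (SE 0.04, edgeR adjusted p = 0.00107).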

How the data were processed

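Total RNA of 24 libraries was sequenced, and the authors deposited raw read counts per gene with gene names, positions and exon lengths. The submitters' processing notes name STAR, HTSeq and GRCh38, with no versions or strand setting. All 58735 gene identifiers were found in GENCODE 29. Libraries were grouped by genotype and treatment from the labels. Genes were filtered with filterByExpr (minimum count 10), scaled by TMM and fitted with edgeR 4.0.16 (limma 3.58.1, R 4.3.3) by the quasi-likelihood test, with 1 mean per group over all 24 libraries and Benjamini-Hochberg adjustment over 15956 genes. The SE is the absolute log2 fold change divided by the square root of the quasi-likelihood F. The 95% intervals are the fold change plus or minus a t quantile at 16 residual degrees of freedom times the SE. The test's own p-values use other degrees of freedom, so p and interval can disagree near the threshold. For BBC3 in E79Q against WT after both treatments, the unadjusted edgeR p was 0.0466 and the interval -0.005 to 0.663. Alternatives were RLE scaling, no filter, a replicate block, the compared groups alone, each library left out, 4 libraries left out, GC trends removed and DESeq2 1.42.0. On simulated data, 69% of genes changed 2-fold and 59% changed 1.5-fold were recovered for E79Q against WT control over 15587 genes. For the genotype difference in CB-839 effect in unirradiated cells, 38% of genes changed 1.5-fold were recovered. Far fewer genes were changed in the simulation (67 at 2-fold) than were called in the data, so recovery in the data may differ. Genes named besides the 10 members were those of smallest p in each list, a rule from which some list genes were left out for length. CDKN1A, MDM2, NQO1 and NFE2L2 were checks. The members and lists were chosen with earlier results of these data known.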

Additional observations from a re-analysis of the deposited data

Results flagged for a closer look

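In 12 cases an effect on a member differed between genotypes, or between irradiated and unirradiated cells, by a test of the difference itself, all as log2 differences in edgeR's quasi-likelihood test. The CB-839 effect in unirradiated cells differed by genotype for BBC3 (2.11, adjusted p = 3.49e-06), BCL2L1 (-0.46, 0.00139) and PMAIP1 (0.43, 0.0103). The radiation effect differed by genotype for BBC3 without CB-839 (1.48, adjusted p = 0.0012) and for PMAIP1 with it (-0.51, 0.0176). In WT cells the radiation effect depended on CB-839 for BBC3 (1.84, adjusted p = 1.99e-05) and BCL2 (-0.90, 0.0371). In E79Q cells it did so for BCL2L1 (0.54, adjusted p = 0.000804), MCL1 (-0.24, 0.0107), PMAIP1 (-0.43, 0.0147), BCL2 (-0.77, 0.0303) and BAK1 (0.34, 0.0312). These tests share groups, so they are not independent of each other. The BBC3 and BCL2L1 calls, and PMAIP1's genotype difference in CB-839 effect, held in every alternative and with every library left out. The BCL2, MCL1 and BAK1 calls and the other PMAIP1 calls were each lost in some of these fits. PMAIP1's -0.43 in E79Q became -0.09 (edgeR adjusted p = 0.653) with GC trends removed.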

How the results depend on the processing

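Of 56 calls over members and comparisons, 27 held under every alternative and with every library left out in turn. With 3 libraries a group, BBC3 and BCL2, at under 130 reads a library, were the least precisely measured.

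In counts of members called, fitting the compared groups alone gave 5 for E79Q against WT in control cells, 2 after radiation, 0 after both treatments, 1 for CB-839 in irradiated E79Q cells, 0 for the genotype difference in radiation effect with CB-839, and 1 for the dependence of radiation on CB-839 in each genotype. No filter gave 2 for E79Q against WT under CB-839 and 0 after radiation, 3 for radiation in E79Q, 3 for CB-839 in WT, and 1 (WT) and 3 (E79Q) for the dependence of radiation on CB-839. Without the 4 libraries with GC trends the count was 2 for CB-839 in irradiated WT cells and 3 for the dependence in E79Q. With GC trends removed, chosen after seeing the data, it was 5 for E79Q against WT in control cells, 2 for CB-839 in irradiated WT cells and 1 for the dependence in E79Q. DESeq2 gave 2 for CB-839 in irradiated WT cells, 2 for the genotype difference in radiation effect with CB-839 and 1 for that in CB-839 effect in irradiated cells. PMAIP1 under CB-839 in irradiated E79Q cells turned from -0.03 to 0.24 with GC trends removed (edgeR adjusted p = 0.0112).

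Leaving out 1 library gave, for E79Q against WT, 2 to 5 calls in control cells, 2 to 4 under CB-839, 0 to 1 after radiation and 1 after both. For radiation it gave 2 to 6 in WT, 4 to 5 in WT with CB-839, 3 to 6 in E79Q and 4 to 6 in E79Q with CB-839. For CB-839 it gave 2 to 5 in WT, 0 to 1 in irradiated WT, 3 to 6 in E79Q and 1 to 3 in irradiated E79Q cells. The differences by genotype had 1 (radiation), 0 to 1 (radiation with CB-839), 3 (CB-839) and 0 to 1 (CB-839 in irradiated cells), and the dependence of radiation on CB-839 had 1 to 2 in WT and 2 to 6 in E79Q.

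A replicate block changed 1 count, CB-839 in WT, to 4, through BCL2L11 (0.28, edgeR adjusted p = 0.0566), and changed no other call. Replicate numbers did not pair the libraries: 4 of 24 correlated best with a library of their own number, and r of same-numbered pairs ran from -0.175 to 0.0871.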
